A study of Mus musculus with 2 samples.

Results

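The genes for histone lysine methyltransferases (writers) and demethylases (erasers) were examined for EP300 binding in fetal liver. They were taken by name from the protein-coding genes of the GENCODE vM21 annotation: names starting with Kmt or Setd were counted as writers and names starting with Kdm as erasers. This gave 34 genes of 21938, 17 writers and 17 erasers; 2 further genes with such names are not analysed here. The measurement was chromatin immunoprecipitation with sequencing (ChIP-seq) for EP300, a histone acetyltransferase found at active enhancers and promoters, in 2 libraries. Both came from liver of B6NCrl mouse embryos aged 14.5 days, with the sexes mixed and the pulverized organs of several dissections combined. There was 1 group, with no second tissue, age, genotype or treatment. Replicates 1 and 2 share 1 biosample label, so the spread between them may be technical. The lists give no read totals, so depth is unknown.

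Writers add methyl groups to lysines of histone tails, and erasers remove them. Methylation of H3K4 by the Kmt2 and Setd1 enzymes marks active promoters and enhancers and is removed by the Kdm5 family. H3K9 methylation, placed by Setdb1, marks silent chromatin and is removed by Kdm3 and Kdm4 enzymes, and Kdm6 enzymes remove the Polycomb mark on H3K27. The fetal liver is the main site of red cell formation at this age, and red cell precursors condense their chromatin as they mature.

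The strongest peaks away from any annotated transcription start site (TSS) are shown first, because they carried the highest signals near these genes. Each window reaches 50 bases to either side of the summit and is written 5′ to 3′ on the plus strand of mm10, for 2 erasers and 2 writers. The positions are chr6:39203359-39203459, chr7:125428929-125429029, chr7:4747642-4747742 and chr15:98827692-98827792. Capitals mark GATA letters (GATA after A or T and before A or G, either strand) and, where CTG, 7 or 8 bases and GATA follow each other on either strand, the whole of that E-box and GATA composite.
Kdm7a, intron: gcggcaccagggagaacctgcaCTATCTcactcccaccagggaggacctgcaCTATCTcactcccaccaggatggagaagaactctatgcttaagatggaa
Kdm8, upstream: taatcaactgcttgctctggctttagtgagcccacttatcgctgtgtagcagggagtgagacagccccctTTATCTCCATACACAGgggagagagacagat
Kmt5c, downstream: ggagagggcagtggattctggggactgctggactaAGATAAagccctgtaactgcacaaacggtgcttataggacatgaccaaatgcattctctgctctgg
Kmt2d, in Prkag1: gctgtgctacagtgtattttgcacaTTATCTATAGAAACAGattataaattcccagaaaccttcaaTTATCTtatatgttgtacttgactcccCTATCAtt
All 4 windows held GATA letters, the sequence that the red cell factor GATA1 recognises, and those at Kdm8 and Kmt2d also held a composite, which overlaps the GATA match. Of all optimal peaks more than 1 kb from any TSS, 86.3% held GATA letters within 100 bp of the summit and 18.3% a composite. GATA letters therefore do not set these 4 windows apart. In the Kdm7a window a stretch of 26 bases, acctgcactatctcactcccaccagg, stood in 2 exact copies offset by 30 bases, each with a GATA match.

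The strongest peaks within 1 kb of a TSS of the gene are shown for comparison, for 2 writers and 2 erasers, from chr7:4743479-4743579, chr15:98837520-98837620, chr6:71610026-71610126 and chr9:14500601-14500701. Capitals here mark GATA letters, the NFY letters CCAAT and the ETS letters CCGGAAG, on either strand.
Kmt5c, internal TSS: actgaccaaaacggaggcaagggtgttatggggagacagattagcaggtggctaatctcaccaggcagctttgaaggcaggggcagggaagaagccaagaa
Kmt2d, internal TSS: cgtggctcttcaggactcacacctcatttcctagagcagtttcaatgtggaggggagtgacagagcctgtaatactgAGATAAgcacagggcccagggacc
Kdm3a, internal TSS: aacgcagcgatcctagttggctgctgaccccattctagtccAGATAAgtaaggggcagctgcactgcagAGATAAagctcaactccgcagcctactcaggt
Kdm4d, gene start: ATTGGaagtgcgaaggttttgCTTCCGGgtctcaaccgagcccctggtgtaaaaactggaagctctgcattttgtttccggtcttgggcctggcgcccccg
Of these 4 summits only the one at Kdm4d lay at the 5′ end of its gene, and it held NFY and ETS letters and no GATA match. The Kmt2d and Kdm3a windows, at TSSs inside the gene, held 1 and 2 GATA matches. None of the motifs searched was found in the Kmt5c window. A match describes letters in the window and was not tested for binding.

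EP300 peaks lay near 23 of the 34 genes, and 14 of them had a peak at a promoter. The counts use the authors' optimal list, the peaks kept by the irreproducible discovery rate (IDR), and count a gene once if at least 1 summit stood no more than 20 kb from one of its TSSs. Writers had one at 11 of 17 genes (64.7%, 95% Wilson interval 41.3 to 82.7) and erasers at 12 of 17 (70.6%, 46.9 to 86.7), beside 38.3% of all coding genes. The difference, writers minus erasers, was -5.88 percentage points (95% Newcombe interval -34.3 to 23.9). A promoter peak, with its summit within 1 kb of a TSS of the gene, was found at 9 of 17 writers (52.9%, 31.0 to 73.8) and 5 of 17 erasers (29.4%, 13.3 to 53.1), beside 15.4% of all coding genes. This difference was 23.5 points, with an interval of -8.81 to 49.9 that includes 0. Intervals cover counting error only, and genes are not replicates, so no test was made.

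The promoter difference depended on the choices made. It fell to 5.88 points in the conservative list (8 writers, 7 erasers, beside 14.4% of all coding genes). The same difference was found without replicate 1, where Kdm2a, Kdm3b, Kdm5a and Kdm5c gained a promoter peak. Erasers then stood at 9 of 17, beside 16.9% of all coding genes. With a window of 2.5 kb the difference was 35.3 points (1.97 to 59.5), and without the members of other or disputed activity 41.7 points (4.76 to 66.2). Both intervals lie above 0, but they cover counting error only and are no test. Those members were 5 writers, 1 of them with a promoter peak, and 1 eraser, which had one. Leaving them out therefore had to raise the difference. The classes also differ in annotation, with a median of 8 TSSs per writer, 6 per eraser and 3 per coding gene, and more TSSs widen the search. Among the 5967 coding genes with at least 6 TSSs, 27.3% had a promoter peak and 58% a peak within 20 kb. The part of TSS number in the counts was not tested.

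**Figure D1:**
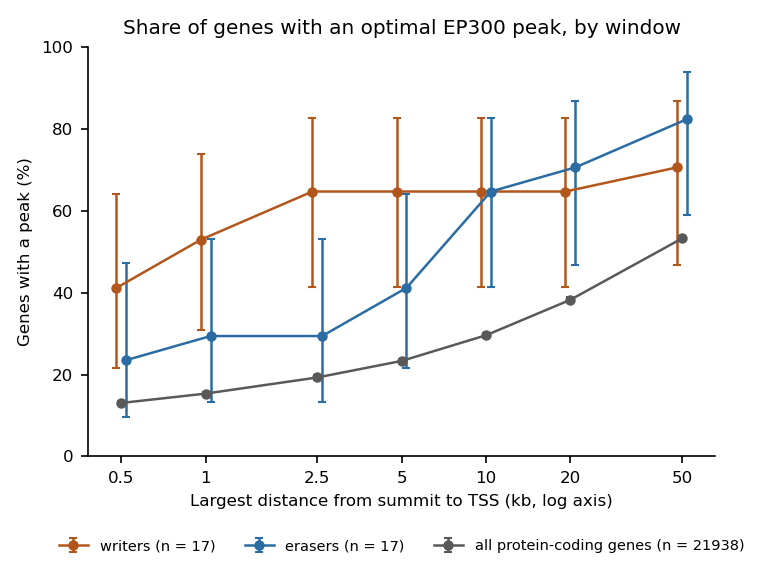
Share of genes with an optimal EP300 summit (y axis, %) within a given distance of any of their TSSs (x axis, kb, log axis) for 17 writers, 17 erasers and 21938 coding genes, with 95% Wilson intervals as bars. Writers stood at 64.7% from 2.5 to 20 kb, and erasers went from 29.4% at 2.5 kb to 64.7% at 10 kb. All coding genes went from 19.3% at 2.5 kb to 29.6% at 10 kb and 38.3% at 20 kb.

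The plot of shares by window shows where the classes parted. All 11 writers with a peak within 20 kb already had one within 2.5 kb. Erasers stood at 5 of 17 at 2.5 kb, 7 at 5 kb and 11 at 10 kb. Over all coding genes the share was 19.3% at 2.5 kb, 23.3% at 5 kb, 29.6% at 10 kb and 38.3% at 20 kb. The erasers first counted beyond 5 kb were Kdm3b, Kdm5a, Kdm5b, Kdm5c and Kdm6b. At 50 kb the counts were 12 writers and 14 erasers, beside 53.2% of all coding genes. The writers nearest to the 1 kb limit were Kmt2e (902 bp) and Setd1b (930 bp) inside it and Setd5 (1194 bp) and Kmt2c (1906 bp) outside it. Having 2 or more peaks within 20 kb was as common in writers as in erasers, 8 of 17 each. The share was 21.2% of all coding genes and 34.6% of those with at least 6 TSSs.

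The 62 peaks near these genes, 38 at writers and 24 at erasers, had a lower median signal than the list as a whole. Peak signal is the authors' value for each peak, with no fixed unit, and serves here as a description and for ranking, list by list. The median was 31.5 for the 62 peaks, 28.1 at writers and 35.6 at erasers, beside 38.5 over the 17043 optimal peaks on chromosomes. It was 37.5 over the optimal peaks within 20 kb of a coding gene, the set most like the 62. Promoters of any gene held 50% of the 62 peaks, beside 26.2% of all optimal peaks and 35.3% of those within 20 kb of a coding gene. Peaks of like place differed less, with medians of 29.2 beside 31.5 at promoters and 40.8 beside 42.2 away from them. Of the 62, 8 had a signal above 100 (12.9%, beside 19.9% of all optimal peaks), at Kdm7a, Kdm8, Kmt5c, Kmt2d, Kdm6b and Kdm3a. None of these 8 lay within 1 kb of the 5′ end of the gene record.

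**Figure D2:**
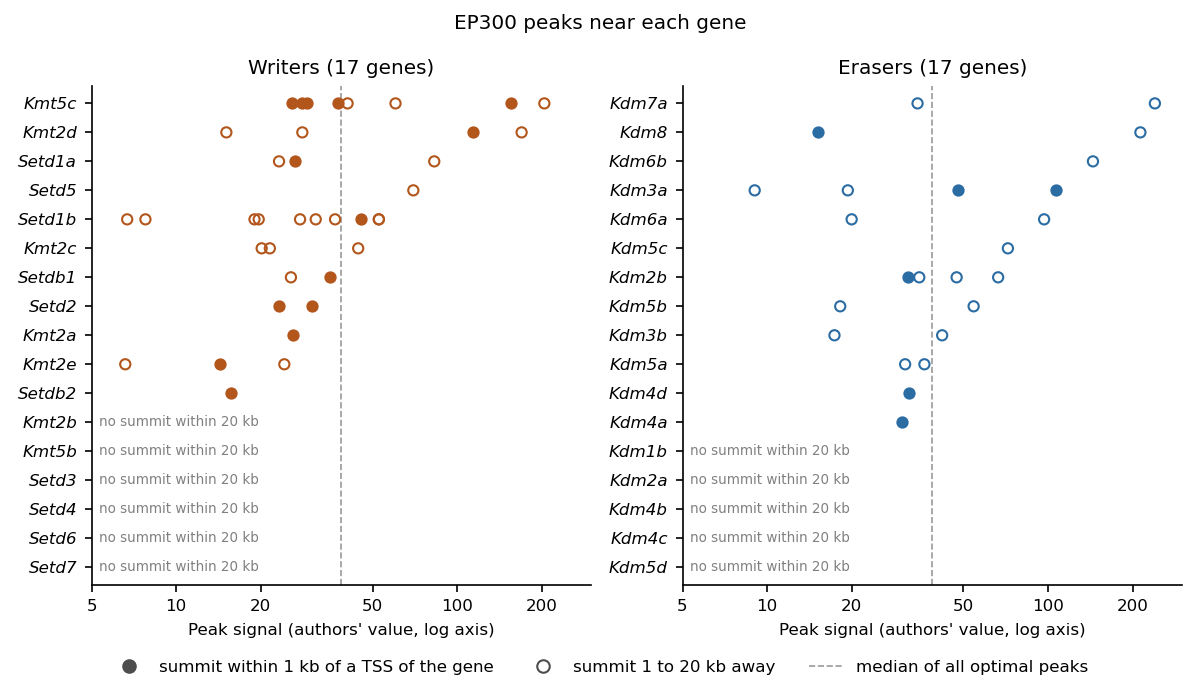
Signal of each optimal EP300 peak within 20 kb of the 17 writers (left) and 17 erasers (right), on a log x axis in the authors' units, with 1 point per peak, filled where the summit lies within 1 kb of a TSS of the gene. The dashed line is the median of all optimal peaks (38.5), and the points above 100 belong to Kmt5c, Kmt2d, Kdm7a, Kdm8, Kdm6b and Kdm3a.

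The 14 peaks at the 5′ end of 13 of the genes had signals from 14.3 to 47.7 (median 29.7), and the other 48 reached 240.2 (median 35.6). Over all optimal peaks the medians were 28.9 at gene 5′ ends and 41.5 elsewhere. GATA letters within 100 bp of the summit stood in 4 of the 14 (28.6%) and 35 of the 48 (72.9%), beside 27.1% and 84.2% of all optimal peaks. For the members only their own 5′ end was counted, and 11 of the 48 lay at the promoter of another gene only. The values elsewhere are therefore not matched to those over all optimal peaks. Away from promoters of any gene, GATA letters stood in 26 of 31 peaks near the members (83.9%), beside 86.3%. By class, the medians at gene 5′ ends and elsewhere were both 28.1 for writers, and 31.6 and 42.0 for erasers. The share of peaks above 38.5, the median of all optimal peaks, was lower at gene 5′ ends in both classes. It was 1 of 9 against 11 of 29 for writers and 1 of 5 against 10 of 19 for erasers, beside 35.1% and 53.0% of all optimal peaks. GATA letters stood in 1 of 9 and 19 of 29 writer peaks, and in 3 of 5 and 16 of 19 eraser peaks.

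The 2 strongest peaks lay near erasers. Kdm7a removes methyl groups from H3K9 and H3K27. Its strongest peak had a signal of 240.2 and lay in its own intron, chr6:39203298-39203519, 3380 bp inside the gene. The signal was 101.8 in the list of replicate 1 (rank 1217 by signal) and 136.6 in that of replicate 2 (rank 677), so it was among the high peaks of both libraries. A second intron peak had a signal of 34.3, and no peak lay at the gene start.

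Kdm8, a JmjC protein whose demethylase activity is disputed, had a peak of 213.3 at chr7:125428870-125429104, intergenic and 15697 bp upstream. It had a signal of 120.2 in replicate 1 (rank 853) and 94.8 in replicate 2 (rank 1482). The nearest TSS of any kind, 10865 bp away, belonged to the lincRNA Gm30717. The promoter peak of Kdm8, at 126 bp, had a signal of 15.1.

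Both H3K27 erasers had a peak within 20 kb and neither had a promoter peak, beside 38.3% and 15.4% of all coding genes. Kdm6b had 1 peak, of 144.6 (77.7 in replicate 1, rank 1898, and 66.8 in replicate 2, rank 2513), at chr11:69395657-69395833. That summit lay 8482 bp from the nearest Kdm6b TSS and 81 bp from a TSS of the neighbouring gene Naa38, and its window held no GATA letters. Kdm6a, which works in one complex with Kmt2c or Kmt2d, had an intron peak of 96.9 at chrX:18179691-18179810, 17073 bp from the nearest TSS, with 4 GATA matches and a composite. Its signals were 41.4 (rank 4117) and 58.5 (rank 2945) in replicates 1 and 2. A second, weaker peak of Kdm6a also lay in an intron.

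The H3K9 erasers of the Kdm3 and Kdm4 families were split. Of the 6, 3 had a promoter peak and 4 a peak within 20 kb. The shares were 15.4% and 38.3% of all coding genes, and 27.3% and 58% of those with at least 6 TSSs. Kdm3a, an H3K9 demethylase, had a peak of 106.7 at chr6:71609906-71610245 (50.4 in replicate 1, rank 3294, and 54.8 in replicate 2, rank 3175). It lay 937 bp from the TSS of a processed transcript and 22914 bp from the gene start, where a second peak (241 bp) had a signal of 47.7. Kdm4a had a promoter peak of 30.1 at 96 bp. The promoter peak of Kdm4d (31.9, 169 bp) lay 4 bp from a TSS of Cwc15, so the 2 genes' starts cannot be told apart there. Kdm3b had only intron peaks, of 42.0 and 17.4, and Kdm4b and Kdm4c had none within 20 kb.

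None of the 5 H3K4 erasers had a promoter peak in the optimal list, beside 15.4% of all coding genes. A peak within 20 kb was found at 3 of the 5, beside 38.3%. Kdm5d, 1 of the 5, is on chromosome Y, where the optimal list holds no peak. Kdm5c had a peak of 72.0 in a coding exon, chrX:152244817-152245156, with 28.2 in replicate 1 (rank 6041) and 41.3 in replicate 2 (rank 4308). Kdm5b had 2 intron peaks, of 54.4 and 18.2, and Kdm5a an intron peak of 36.3 and 1 of 31.0 at the start of its neighbour Ccdc77. The count of 0 rested on the list used: it was 1 in the conservative list, 1 among the same number of top pooled peaks, and 2 without replicate 1. Of the 2 H3K36 erasers, Kdm2b, which binds CpG islands, had 4 peaks, the strongest (66.5) in an intron and 1 of 31.6 at 750 bp, and Kdm2a had none within 20 kb.

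Kmt5c and Kmt2d stood out among the writers. Kmt5c, which places trimethylation on H4K20, had 8 peaks, 5 of them promoter peaks. The gene has 12 annotated TSSs within 7400 bp, which widens the search for promoter peaks. Its promoter peak 400 bp upstream lay within 500 bp of a stronger one. The strongest of the 8, 204.5, lay just beyond the 3′ end of the gene at chr7:4747574-4747814, 1884 bp from a TSS (97.8 in replicate 1, rank 1296, and 112.2 in replicate 2, rank 1081). A peak of 155.4 lay inside the gene, 785 bp from the TSS of a retained-intron transcript and 3414 bp from the gene start (73.0, rank 2068, and 79.5, rank 1965). The peak at the gene start itself had a signal of 29.2. Kmt5b, the other H4K20 writer, had none within 20 kb.

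Of the 7 H3K4 writers, 4 had a promoter peak and 5 a peak within 20 kb. The shares were 15.4% and 38.3% of all coding genes, and 27.3% and 58% of those with at least 6 TSSs. Kmt2d, which monomethylates H3K4 at enhancers, had its strongest peak (169.7) at chr15:98827630-98827916, in an intron of its neighbour Prkag1 and 9422 bp from a Kmt2d TSS. Its signals were 97.2 in replicate 1 (rank 1310) and 71.2 in replicate 2 (rank 2301). The promoter peak of Kmt2d (113.9; 56.0 and 59.5 in replicates 1 and 2) lay 406 bp from an internal TSS, 33634 bp from the gene start. With 1 TSS per gene, Kmt2d had no peak within 20 kb.

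Setd1a and Setd1b, the catalytic subunits of the SET1 complexes, both had a promoter peak. Setd1a had 26.4 at 64 bp, but in replicate 1 the peak there ranked 119677. Its strongest peak was 82.9, at chr7:127767217-127767556 in an intron of Fbxl19 and 9283 bp upstream (41.2 in replicate 1, rank 4137, and 44.9 in replicate 2, rank 3940). The promoter peak of Setd1b, at 930 bp, had a signal of 45.3 and lay closer, at 174 bp, to a TSS of the lincRNA AI480526. Setd1b had 10 peaks, more than any other member, none above 52.7. Of these, 6 lay at starts of the lincRNAs AI480526 and Gm38102, the promoter peak of Setd1b included. Kmt2a had 1 peak, of 26.0 at 148 bp, and Kmt2c had 3, the strongest (44.5) in a coding exon. Kmt2b and Setd7 had none within 20 kb.

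The 3 writers of H3K9 and H3K36 had promoter peaks of modest signal, beside 15.4% of all coding genes with a promoter peak. Setdb1 had 35.4 at 106 bp. Setdb2 had 15.7 at 224 bp and 127 bp from the divergent gene Cab39l, with rank 30818 in replicate 1 and 17756 in replicate 2. Setdb2 had no promoter peak in the conservative list, among the same number of top pooled peaks, or with either replicate left out. Setd2, which trimethylates H3K36, had 30.4 at 328 bp with no replicate 2 summit within 100 bp. Replicate 2 alone still gave Setd2 a promoter peak. Among the 5 writers of other or disputed activity, Setd5 had a peak of 69.9 at chr6:113076001-113076340, 1194 bp upstream in an intron of the antisense gene Gt(ROSA)26Sor (29.9, rank 5686, and 39.1, rank 4568). Kmt2e had a promoter peak of 14.3 at 902 bp, which lay closer, at 203 bp, to a TSS of the lincRNA 5031425E22Rik. No replicate 1 summit lay within 100 bp of that peak, but replicate 1 alone still gave Kmt2e a promoter peak.

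**Figure D3:**
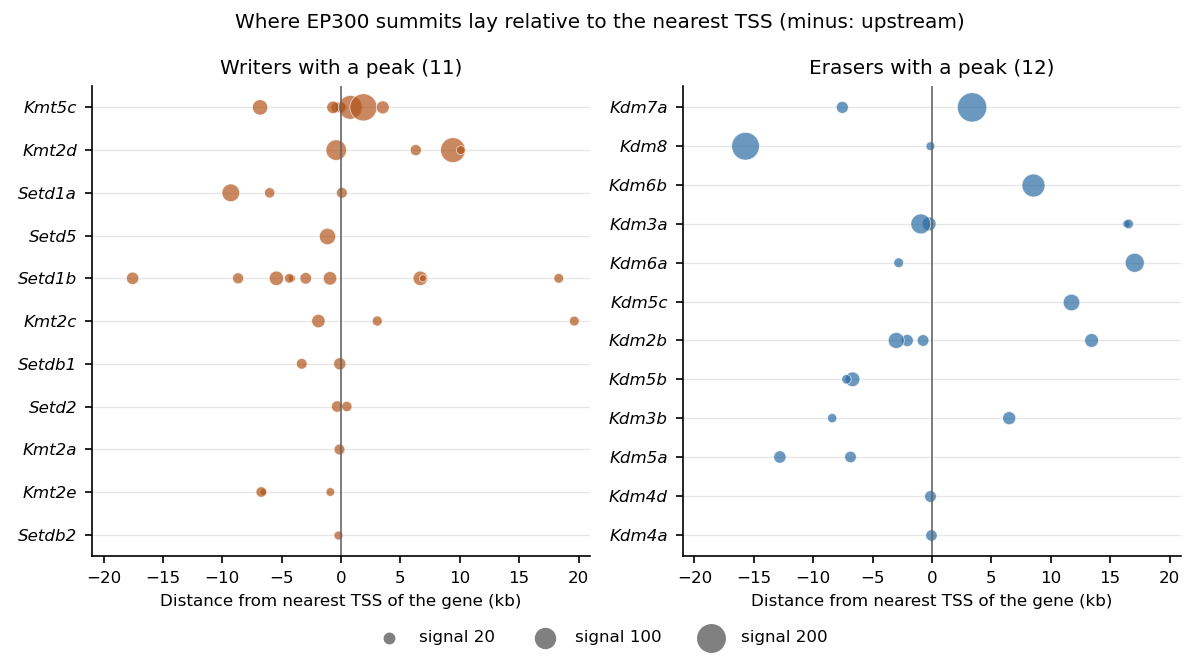
Position of each optimal EP300 summit relative to the nearest TSS of the gene (x axis, kb, minus for upstream) for the 11 writers (left) and 12 erasers (right) with a peak, with point area growing with signal. The large points of Kdm8, Kdm6b, Kdm6a and Kmt2d lie 8482 to 17073 bp from the TSS.

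Among the genes with no peak within 20 kb were 6 writers and 5 erasers. The nearest optimal summit lay 27619 bp from Kmt5b, 52684 bp from Setd7, 67462 bp from Setd6, 140955 bp from Setd4, 173416 bp from Kmt2b and 600985 bp from Setd3. For the erasers it lay 34751 bp from Kdm4b, 43000 bp from Kdm1b, 130615 bp from Kdm2a and 157183 bp from Kdm4c. Kdm5d is on chromosome Y, where the optimal list holds no peak.

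Several members without an optimal promoter peak had a summit there in the pooled list, which holds 300000 entries and reached within 1 kb of a TSS for 52.7% of all coding genes. Of the 20 such members, 12 had one (60%), beside 44.1% of all coding genes without an optimal promoter peak. These shares are not matched for TSS number. Over all 34 members, with a median of 6 TSSs, 76.5% had a pooled summit within 1 kb, beside 78.8% of coding genes with at least 6 TSSs. Setd3, which lies 600985 bp from any optimal summit, had a pooled signal of 32.6 at 427 bp (rank 9957), with 14.4 in replicate 1 (rank 11279) and 16.0 in replicate 2 (rank 10743), and the conservative list holds it. Kdm5a had 30.5 at 29 bp (rank 10535), with rank 9714 in replicate 2 and 180981 in replicate 1. Kdm2a had 26.4 at 57 bp (rank 11892), with rank 131707 in replicate 1 and no replicate 2 summit within 100 bp of it, although either library alone placed a top peak within 1 kb of a Kdm2a TSS. The summits at Setd5 (21.9), Kdm5c (14.6) and Kdm3b (11.1) are in the conservative list but not in the optimal one.

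Of the 38 writer peaks, 23 (60.5%) stood within 1 kb of a TSS of any gene and 8 in introns, and of the 24 eraser peaks, 8 (33.3%) and 14. The difference was not tested, since peaks of 1 gene are not independent. Over all optimal peaks within 20 kb of a coding gene, 35.3% lay at promoters and 41.7% in introns. Kmt5c and Setd1b gave 18 of the writer peaks, and without them 11 of 20 (55%) lay at promoters. Some of these promoters belong to neighbours: 9 of the 38 writer peaks and 2 of the 24 eraser peaks lay at the promoter of another gene only. The member was the nearest coding gene for 27 of 38 writer peaks and 19 of 24 eraser peaks.

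Away from promoters, GATA letters stood within 100 bp of 11 of 15 writer summits (73.3%) and 15 of 16 eraser summits (93.8%), beside 86.3% of all distal peaks. CACCC letters (CCNCNCCC, either strand), read by Kruppel-like factors such as KLF1, stood in 3 of 15 and 7 of 16, beside 23.0%. The composite stood in 6 of the 31 distal peaks (19.4%, beside 18.3%). At promoters, GATA letters stood in 13 of 31 (41.9%), beside 42.1%, and CCAAT in 4 of 23 writer and 5 of 8 eraser peaks, beside 25.3%. The count for each class rests on 8 to 23 peaks.

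**Figure D4:**
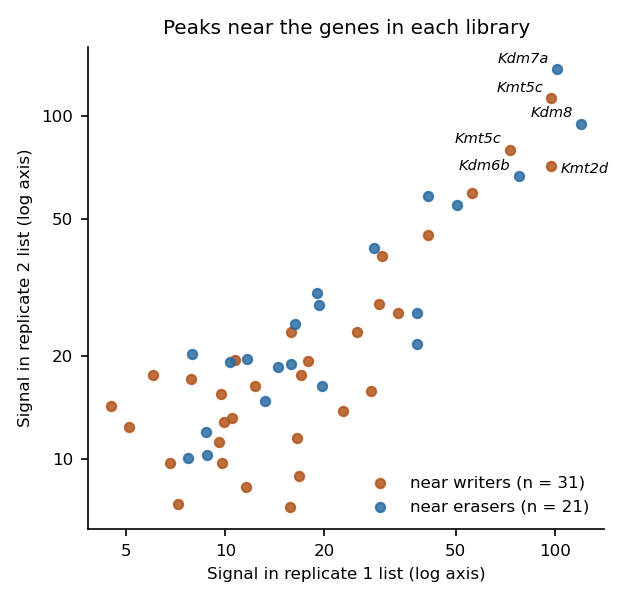
Signal of the 52 peaks found in both libraries, in the list of replicate 1 (x axis) and of replicate 2 (y axis), both log axes, with 31 peaks near writers and 21 near erasers. The 6 strongest of these peaks by optimal signal are named and lie at the upper right in both libraries.

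Of the 62 peaks, 52 had a summit within 100 bp in both libraries (83.9%, beside 84.3% of all optimal peaks), as the plot of the libraries shows. The list of each library holds 300000 entries, so a match can rest on a weak summit. The optimal list was itself made from both libraries, so these matches are no independent check of the peaks. The strongest of the other 10 had a signal of 52.7, at Setd1b, and their median was 15.8. The peaks above 100 were all in both libraries.

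The other genes of the pathway were taken from lists of names and counted in the same way, beside 38.3% of all coding genes with a peak within 20 kb and 15.4% with a promoter peak. The lists have a median of 6 or 7 TSSs per gene, and among coding genes with at least 6 TSSs the shares were 58% and 27.3%. Of 18 other writers, 11 (61.1%) had a peak within 20 kb and 4 a promoter peak, with Nsd3 (264.3), Ezh2 (240.2) and Ezh1 (137.1) strongest; Ezh1 and Ezh2 are the catalytic subunits of Polycomb complex PRC2. Smyd3, Suv39h2, Ash1l, Prdm2, Nsd2, Nsd1 and Prdm9 had none. Of 7 other erasers, 4 (57.1%) had a peak and 3 a promoter peak, with Jmjd1c (202.8), Phf8 (32.6) and Riox2 (30.2) strongest, and Riox1, Hr and Uty had none. Of 12 partners of the H3K4 writers in COMPASS complexes, 9 (75%) had a peak and 4 a promoter peak, with Dpy30 (153.5), Hcfc1 (101.6) and Rbbp5 (55.8) strongest, and Ncoa6, Psip1 and Men1 had none. Of 9 PRC2 partners, 5 (55.6%) had a peak and 3 a promoter peak, with Rbbp4 (141.0), Eed (109.9) and Jarid2 (38.1) strongest, and Phf19, Mtf2, Aebp2 and Rbbp7 had none.

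The label of the tissue was checked with marker genes. A peak lay within 20 kb of 10 of 10 red cell markers and 5 of 8 hepatocyte markers, and of 0 of 5 macrophage, 2 of 5 endothelial, 0 of 4 stellate and 2 of 4 neuron markers, beside 38.3% of all coding genes. The endothelial and neuron counts are near that share and say nothing of the tissue. None of the 8 hepatocyte markers had a promoter peak, against 9 of 10 red cell markers and 15.4% of all coding genes. Liver is a mixture of cells, and in bulk samples more cells with a peak and more binding per cell cannot be told apart.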

How the data were processed

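EP300 ChIP-seq peaks were analysed from 2 libraries of 1 group. The peak signal is, as deposited by the authors, the value of each peak in their lists on assembly mm10. The aligner, the peak caller and its cutoff were not given in the sources used here. The optimal and conservative lists are IDR lists made from both libraries, and share the signal values of the pooled list for the member peaks; the list of each library has a scale of its own. Of 17055 optimal peaks, 12 on unplaced contigs were left out. Summits were set against every TSS of GENCODE vM21, and sequences were read from the GRCm38 assembly, which is mm10. Shares have 95% Wilson intervals and differences 95% Newcombe intervals, computed with statsmodels 0.14.6 in Python 3.11.15 (pandas 2.3.3). The counting of genes by window was tested on simulated data; the motif search was not.

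The members, gene lists and motifs were chosen with earlier results of these data known. Named in full are the 10 members with the strongest peak, and named with a value are the strongest promoter peak of each member, all members without a peak and the 3 strongest genes of each other list. Alternatives changed the list, the replicate used, the TSS set, the window and the assignment; 3 were added after seeing the data. No depth was given, so precision is that of counts of genes.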

Additional observations from a re-analysis of the deposited data

How the results depend on the processing

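No paired analysis was possible because there is 1 group. With only the optimal peaks above the median signal, promoter peaks were left at 3 writers and 1 eraser, beside 7.1% of all coding genes. Peaks within 20 kb were then left at 6 writers, beside 24.8%. With a window of 5 kb, 7 erasers had a peak, beside 23.3%. Leaving out 1 replicate gave 8 to 10 writers and 6 to 9 erasers with a promoter peak, beside 16.9% to 17.7% of all coding genes. Within 20 kb it gave 11 to 13 writers and 13 to 14 erasers, beside 39.4% to 40.2%. The cause of these changes was not tested, other than that fewer peaks or a smaller window can only lower a count. The promoter difference was positive in all 13 alternatives, from 5.88 to 41.7 points. The difference within 20 kb ran from -17.6 to 23.5 points over 15 alternatives, being negative in 10, positive in 2 and 0 in 3, so its sign depended on the choices. In the conservative list 6 of the 9 writers with a promoter peak were shared, with Setd3 and Setd5 gained and Kmt2a, Setd1a and Setdb2 lost. Requiring a summit of each library, leaving out peaks within 500 bp of a stronger one and leaving out genes on chromosome Y were added after seeing the data and changed no count by more than 1 gene. Read depth is unknown, so how far it limits weak peaks could not be measured.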
